A study of Mus musculus with 6 samples.

Results

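The 10 genes described here belong to motor neuron identity, taken on as a spinal motor neuron progenitor leaves the cell cycle, or to later steps. They were given as a named list, chosen with earlier results of these data known, and each symbol was matched to its Ensembl identifier in a table of 55400 genes. They are Mnx1, Isl1, Isl2, Lhx3, Lhx4, Onecut1, Onecut2, Ret, Gfra1 and Foxp1. Of these, 6 had a mean of at least 1 FPKM (fragments scaled by exonic length and by the library's total) over the 6 libraries and were tested. Isl2, Lhx3, Lhx4 and Onecut2 were under 1 FPKM in every library.

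In the ventral spinal cord, progenitors that carry Olig2 give rise to motor neurons. As these cells become postmitotic, the LIM homeodomain proteins Isl1 and Lhx3 bind together with the cofactor Ldb1 and switch on Mnx1 and other motor neuron genes, and Mnx1 holds interneuron genes down. Lhx4 acts beside Lhx3, Isl2 beside Isl1, and Onecut factors bind with Isl1 in young motor neurons. Foxp1, Ret and the co-receptor Gfra1 come into use later, when motor neurons sort into columns and their axons respond to GDNF.

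Polyadenylated RNA was sequenced from day 4 cells of a C57BL/6 mouse embryonic stem cell culture driven toward motor neuron progenitors, in 3 libraries labelled Setd5sh and 3 labelled control. Both groups carry the genotype label WT and shared the same course, in which embryoid bodies begun from 500 cells received retinoic acid at 1 µM and the Sonic hedgehog agonist SAG at 0.5 µM from day 2. Both also share the description of 1 µg/mL doxycycline given 36 h ahead of harvest. The name Setd5sh points to a hairpin RNA against Setd5, a SET domain protein, and the sources used here do not say what the control cells carried. The labels do not say whether replicates were separate cultures, so each p-value measures only the spread between these libraries, which may be technical.

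Total counts ranged from 19639303 to 27660851 in Setd5sh and from 19871993 to 32046466 in control libraries. Setd5 itself stood at 12.9 to 14.4 FPKM in Setd5sh against 16.7 to 22.2 FPKM in control libraries. Olig2, the defining factor of the labelled cell type, was abundant, at 75.7 to 115.8 FPKM in Setd5sh libraries against 65.6 to 78.7 FPKM in control libraries. Across all 12199 tested genes, edgeR's quasi-likelihood test with Benjamini-Hochberg adjustment called 0 genes (0%), and 149 genes had an unadjusted p under 0.05 (1.22%), 74 of them lower in Setd5sh (0.607%). DESeq2 also called 0, with 221 at an unadjusted p under 0.05. The libraries numbered 2, one from each group, lay above the other 4 in Mnx1, as in 16.9% of tested genes, and below the other 4 in Lhx3 and Isl2, as in 6.12% of tested genes. By counts over the tested genes, control replicate 1 was the library furthest from the others.

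Mnx1, Isl1 and Onecut1 are, of the 6 tested members, those whose levels differed most between libraries of the same group, and Mnx1 ran opposite to Isl1. The 250 bases upstream of their RefSeq start sites (GRCm38.p6) are shown for these 3 genes. Capitals mark CANNTG, the E-box core bound by basic helix-loop-helix proteins such as Neurog2 and Olig2, which reads the same on both strands.
Mnx1, chr5:29478471-29478720, minus strand: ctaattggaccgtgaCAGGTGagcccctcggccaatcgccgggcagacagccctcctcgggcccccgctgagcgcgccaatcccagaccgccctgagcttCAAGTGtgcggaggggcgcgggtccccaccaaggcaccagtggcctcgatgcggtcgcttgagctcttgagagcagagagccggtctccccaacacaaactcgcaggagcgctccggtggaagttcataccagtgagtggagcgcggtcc
Isl1, chr13:116309689-116309938, minus strand: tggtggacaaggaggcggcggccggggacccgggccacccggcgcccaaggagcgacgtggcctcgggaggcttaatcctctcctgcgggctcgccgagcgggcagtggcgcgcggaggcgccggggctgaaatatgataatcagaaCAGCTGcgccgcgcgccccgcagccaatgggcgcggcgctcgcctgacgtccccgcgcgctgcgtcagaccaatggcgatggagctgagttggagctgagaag
Onecut1, chr9:74861671-74861920, plus strand: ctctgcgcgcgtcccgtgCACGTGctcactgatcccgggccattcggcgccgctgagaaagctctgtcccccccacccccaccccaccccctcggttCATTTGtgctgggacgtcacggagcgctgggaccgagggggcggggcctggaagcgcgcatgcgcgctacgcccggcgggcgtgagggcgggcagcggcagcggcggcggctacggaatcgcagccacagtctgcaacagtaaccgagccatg
CANNTG occurred 2 times upstream of Mnx1, 1 time upstream of Isl1 and 2 times upstream of Onecut1, and 66.2% of 32851 windows of this length hold at least 1. The homeodomain core TAAT, read on both strands and not overlapping these E-boxes, occurred 1 time in the Mnx1, 2 times in the Isl1 and 0 times in the Onecut1 window, against 54.9% of windows with at least 1. The 3 windows were 66.4%, 71.2% and 71.6% G and C in the order shown, above the median of 52.4% over all windows. The matches describe these letters and not sites of binding. Windows were found for 8 of the 10 members, without Ret and Onecut2.

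Mnx1 (ENSMUSG00000001566, mm10 chromosome 5, 29473034 to 29478470, minus strand) encodes the homeodomain protein also called Hb9 and was the highest member by mean in both groups. It stood at 7.16, 17.1 and 5.05 FPKM in Setd5sh replicates 1, 2 and 3 against 10.7, 22.8 and 11.3 FPKM in control replicates 1, 2 and 3. The groups overlapped, because Setd5sh replicate 2 lay above control replicates 1 and 3. The means were 9.77 ± 6.44 FPKM in Setd5sh against 14.9 ± 6.81 FPKM in control libraries (SD, n = 3 each). Between libraries of the same number, Setd5sh stood at 67.2%, 75.1% and 44.5% of control. Being lower in all 3 such pairs held for 12.1% of tested genes.

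The log2 fold change of Mnx1, Setd5sh minus control, was -0.61, with a standard error (SE) of 0.47 (edgeR adjusted p = 0.995, unadjusted p = 0.229). It was -1.25 without Setd5sh replicate 2 and -0.21 without control replicate 2, so its size turned on the libraries numbered 2. Leaving out both of those libraries gave -0.83, and Setd5sh at 5.05 and 7.16 FPKM then no longer overlapped control at 10.7 and 11.3 FPKM, as was so in this direction for 10.2% of tested genes. Without Setd5sh replicate 3 it was -0.30. In these bulk libraries, fewer cells that express a gene and less of its RNA per cell cannot be told apart.

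Pluripotency genes varied along with Mnx1. The summed level of 9 of them was 29.2, 66.0 and 10.5 FPKM in Setd5sh replicates 1, 2 and 3 against 20.5, 89.3 and 29.4 FPKM in control replicates 1, 2 and 3. Both the sum and Mnx1 were highest in control replicate 2, next in Setd5sh replicate 2 and lowest in Setd5sh replicate 3. In the libraries numbered 1 the sum was higher in Setd5sh than in control, unlike Mnx1. Of the 9 genes, 4 were tested and all 4 had negative log2 fold changes, none passing, with a median of -0.58. Most of the sum is Dppa5a, a stem cell RNA-binding protein, at 25.6, 52.3 and 7.98 FPKM in Setd5sh against 15.2, 69.4 and 24.1 FPKM in control. Pou5f1, the defining factor of pluripotent cells, reached 5.23 FPKM in Setd5sh replicate 2 and 8.31 FPKM in control replicate 2, and was at most 0.86 FPKM in the other Setd5sh libraries and 1.93 FPKM in the other control libraries. Utf1, a chromatin factor of stem cells, stood at 0.98, 2.89 and 1.00 FPKM in Setd5sh against 0.86, 4.62 and 1.35 FPKM in control replicates 1, 2 and 3. The part of these cells in the Mnx1 values was not tested.

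Isl1 (ENSMUSG00000042258, chromosome 13, 116298281 to 116309689, minus strand), the LIM homeodomain factor needed for motor neurons to form, was low and ran the other way. It stood at 2.00, 0.96 and 2.75 FPKM in Setd5sh replicates 1, 2 and 3 against 2.18, 0.73 and 0.94 FPKM in control replicates 1, 2 and 3. The replicates numbered 2 were the lowest of each group, and control replicate 1 lay among the higher Setd5sh libraries, so the groups overlapped. The means were 1.90 ± 0.899 FPKM in Setd5sh against 1.28 ± 0.784 FPKM in control libraries (SD, n = 3 each).

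The log2 fold change of Isl1 was 0.53 (SE 0.53, edgeR adjusted p = 0.995). It ranged from 0.17 without Setd5sh replicate 3 to 1.21 without control replicate 1. Without control replicate 1 the unadjusted p was 0.0199, and no gene passed after adjustment. In that setting Isl1, Onecut1 and Lhx4 were each higher in all Setd5sh libraries than in the remaining 2 control libraries, as were 6.66% of tested genes. Between same-numbered libraries Setd5sh stood at 91.7%, 132% and 293% of control, so pair 1 went against the other pairs.

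Isl2 (ENSMUSG00000032318, chromosome 9), the Isl1 paralog that follows it in postmitotic motor neurons, was near the limit of detection. It had 4, 4 and 5 counts in Setd5sh and 8, 5 and 5 counts in control libraries, or 0.07 to 0.12 FPKM in Setd5sh against 0.08 to 0.11 FPKM in control. Exact 95% Poisson intervals, which cover counting error only, reached up to 0.271 FPKM in Setd5sh against 0.268 FPKM in control. A difference between the groups was not detectable at this depth.

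The ratio of Mnx1 to Isl1, both per length, shows how far the levels of these partners differed. It was 3.58, 17.8 and 1.84 in Setd5sh replicates 1, 2 and 3, and 4.89, 31.2 and 12.1 in control replicates 1, 2 and 3. It was lower in Setd5sh in all 3 same-numbered pairs, but the range within each group was wider than the gap between them. Over the 6 libraries, Pearson's r between Mnx1 and Isl1 on log2(FPKM + 1) was -0.89, a description of points that share group and replicate number.

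**Figure D1:**
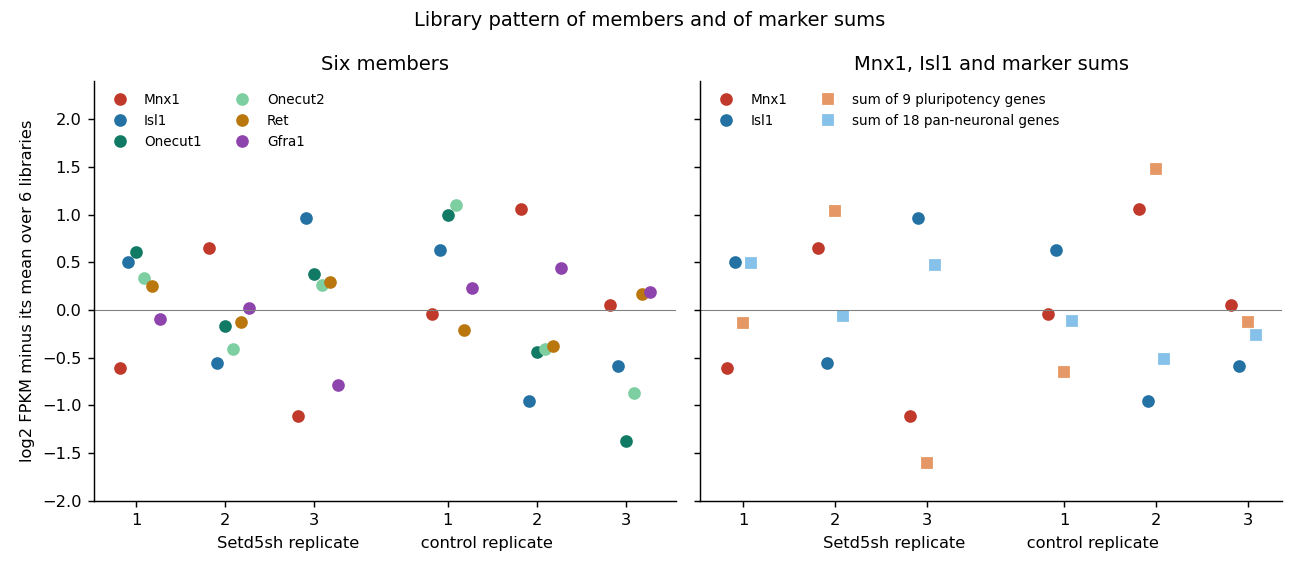
Level in each library as log2 FPKM minus the gene's own mean over the 6 libraries, with Setd5sh replicates left and control replicates right of each panel. Circles are single genes and squares are summed marker lists. Mnx1 and the pluripotency sum are highest in the libraries numbered 2, where Isl1 is lowest of each group.

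Onecut1 (ENSMUSG00000043013, chromosome 9, 74861921 to 74891781, plus strand) encodes a cut homeodomain protein found in young motor neurons and other early neurons. It stood at 1.58, 0.92 and 1.34 FPKM in Setd5sh replicates 1, 2 and 3 against 2.06, 0.76 and 0.40 FPKM in control replicates 1, 2 and 3. Control libraries spanned the whole Setd5sh range and beyond at both ends. The log2 fold change was 0.21 (SE 0.58, edgeR adjusted p = 0.995), and it was 1.16 without control replicate 1 and -0.18 without control replicate 3. It was also -0.013 without control replicate 2, and the direction was therefore not settled.

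Onecut2 (ENSMUSG00000045991, chromosome 18), its paralog, followed the same pattern at a lower level. It stood at 0.37, 0.22 and 0.35 FPKM in Setd5sh against 0.63, 0.22 and 0.16 FPKM in control replicates 1, 2 and 3. The ratio of Onecut1 to Onecut2 was 3.83 to 4.27 in Setd5sh and 2.50 to 3.45 in control libraries. Across the 6 libraries the pair had a Pearson's r of 0.94, the highest of the 45 pairs of members, and each had an r of 0.91 with Lhx4. A lincRNA gene, Gm20649, overlaps Onecut1 on the same strand and had at most 0.01 FPKM; how reads in a shared stretch were assigned is unknown.

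**Figure D2:**
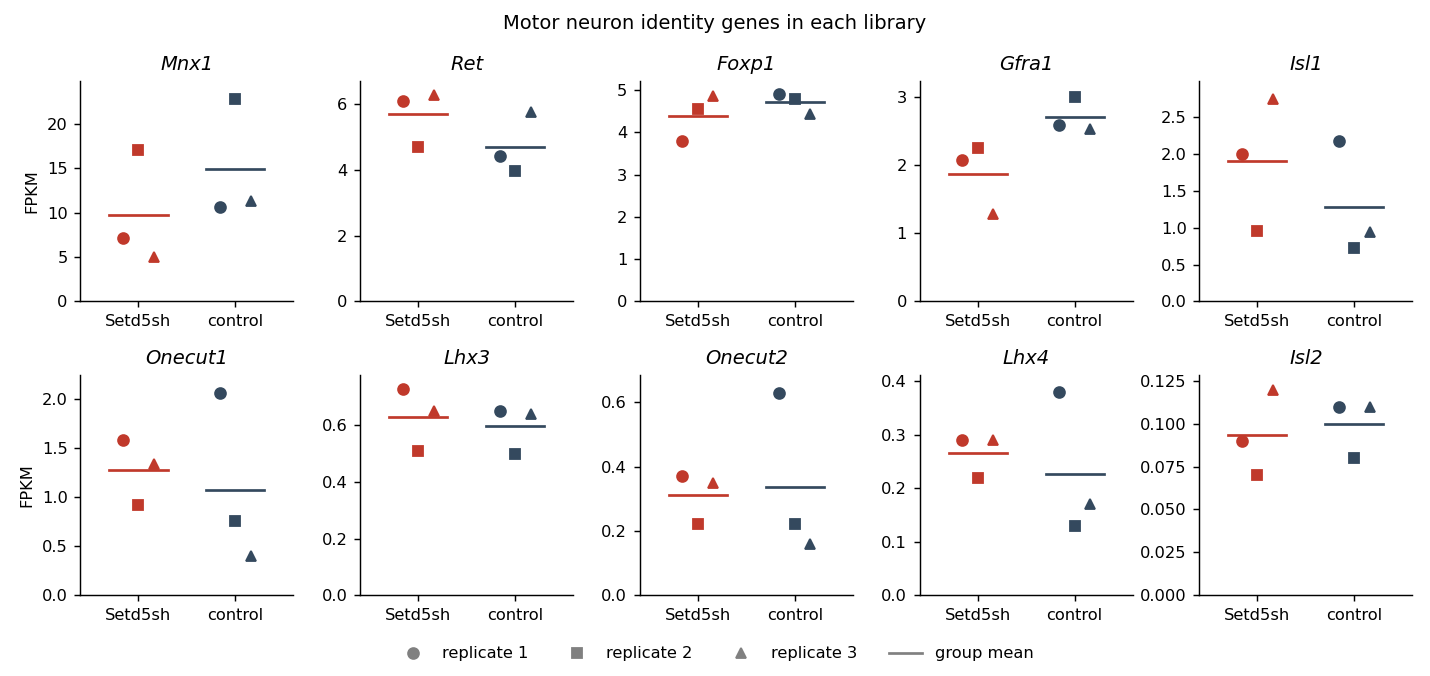
FPKM of each member by library, with Setd5sh left of control in every panel, one symbol per replicate number, a bar for the group mean, and axes from 0 on separate scales. Gfra1 is the only member whose Setd5sh libraries all lie on 1 side of the control libraries.

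Lhx3 (ENSMUSG00000026934, chromosome 2, 26200212 to 26208289, minus strand), the Isl1 partner in medial motor neurons and a V2 interneuron factor on its own, was under 1 FPKM and even. It stood at 0.73, 0.51 and 0.65 FPKM in Setd5sh against 0.65, 0.50 and 0.64 FPKM in control replicates 1, 2 and 3, from 39 to 63 counts per library. The libraries numbered 2 were the lowest of each group, and the groups overlapped. Setd5sh was higher in all 3 same-numbered pairs, at 112%, 102% and 102% of control, as held for 12.8% of tested genes. Counts were 43 against 41 in pair 2 and 39 in both libraries of pair 3, so these pairs give no direction. The ratio of Isl1 to Lhx3 was 2.74, 1.88 and 4.23 in Setd5sh and 3.35, 1.46 and 1.47 in control replicates 1, 2 and 3.

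Lhx4 (ENSMUSG00000026468, chromosome 1, 155698031 to 155751684, minus strand), which acts beside Lhx3, stood at 0.29, 0.22 and 0.29 FPKM in Setd5sh against 0.38, 0.13 and 0.17 FPKM in control replicates 1, 2 and 3. Control replicate 1 was above all Setd5sh libraries and the other control libraries were below them. None of the 4 members under 1 FPKM separated the groups, and they were left out of the edgeR test by the filter on level.

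Ret (ENSMUSG00000030110, chromosome 6, 118151745 to 118197718, minus strand), the receptor tyrosine kinase for GDNF family ligands, was higher by mean in Setd5sh. It stood at 6.10, 4.70 and 6.26 FPKM in Setd5sh against 4.42, 3.95 and 5.74 FPKM in control replicates 1, 2 and 3. Setd5sh was higher in all 3 same-numbered pairs, at 138%, 119% and 109% of control, as held for 12.8% of tested genes. The groups overlapped, with control replicate 3 above Setd5sh replicate 2. The log2 fold change was 0.26 (SE 0.21, edgeR adjusted p = 0.995), as low as 0.13 when control replicate 2 was left out and as high as 0.43 when control replicate 3 was.

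Gfra1 (ENSMUSG00000025089, chromosome 19, 58235604 to 58455909, minus strand) encodes the GPI-anchored co-receptor that presents GDNF to Ret. It stood at 2.08, 2.25 and 1.28 FPKM in Setd5sh against 2.60, 3.00 and 2.53 FPKM in control replicates 1, 2 and 3. Every Setd5sh library was below every control library, which was so for no other member and, in the same direction, for 2.14% of tested genes. The means were 1.87 ± 0.518 FPKM in Setd5sh against 2.71 ± 0.254 FPKM in control libraries (SD, n = 3 each), or 69.0% of control. By a two-sided exact permutation test p was 0.1, and 3 libraries against 3 cannot give a smaller value.

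The log2 fold change of Gfra1 was -0.54 (SE 0.25, edgeR adjusted p = 0.995, unadjusted p = 0.0639). It was -0.33 without Setd5sh replicate 3, the lowest library. An antisense gene, Gm16277, overlaps Gfra1 and was at 0 FPKM in 5 of 6 libraries and at 0.11 FPKM in control replicate 2. The sources used here do not say whether counting used strand.

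Receptor and co-receptor thus differed in opposite directions, neither past the threshold. The ratio of Ret to Gfra1 was 2.93, 2.09 and 4.89 in Setd5sh and 1.70, 1.32 and 2.27 in control replicates 1, 2 and 3. It was higher in Setd5sh in each same-numbered pair, while Setd5sh replicate 2 lay below control replicate 3. Across the 6 libraries Pearson's r between Ret and Gfra1 was -0.76.

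Of 11 other genes of GDNF signalling fixed as a list, 4 were tested and 0 passed, with 1 positive and a median log2 fold change of -0.09, against -0.04 for all tested genes. The most abundant was Gas1, a surface protein related to the Gfra family, at 46.9 ± 9.40 FPKM in Setd5sh against 44.1 ± 14.0 FPKM in control libraries (SD, n = 3 each). Sorl1, a sorting receptor, stood at 8.64 ± 1.47 FPKM in Setd5sh against 9.05 ± 1.51 FPKM in control. Nrtn, the ligand neurturin, stood at 3.07, 8.45 and 3.83 FPKM in Setd5sh against 2.53, 9.68 and 5.95 FPKM in control replicates 1, 2 and 3, highest in the libraries numbered 2. GDNF itself (Gdnf) was at 0.43 to 0.56 FPKM in Setd5sh against 0.35 to 0.66 FPKM in control.

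Foxp1 (ENSMUSG00000030067, chromosome 6, 98925338 to 99522721, minus strand), the forkhead factor of limb-innervating motor neurons, varied least of the 6 tested members. It stood at 3.79, 4.55 and 4.85 FPKM in Setd5sh against 4.91, 4.78 and 4.43 FPKM in control replicates 1, 2 and 3. The groups overlapped, and the log2 fold change was -0.11 (SE 0.15, edgeR adjusted p = 0.995). Without the libraries numbered 1 it was 0.042. Foxp1 is widely expressed, and its transcript forms are not separated in gene counts.

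**Figure D3:**
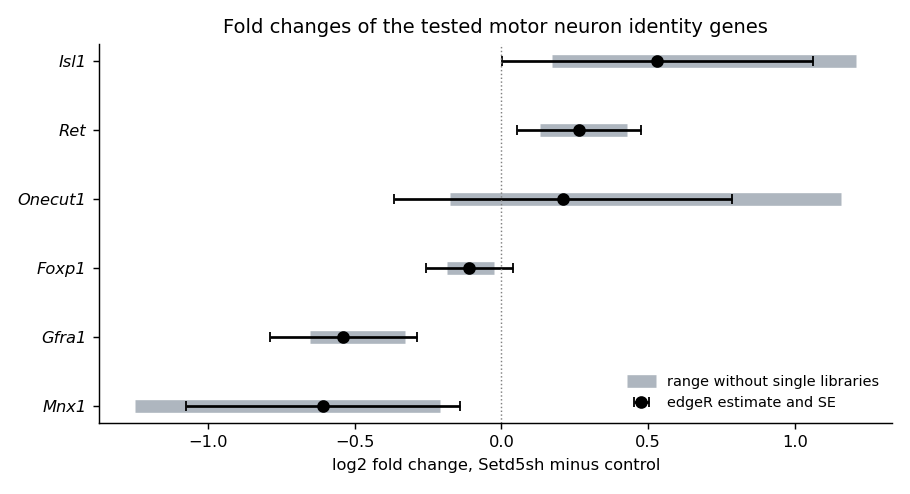
Log2 fold change, Setd5sh minus control, of the 6 tested members, with the edgeR standard error as black bars and the range over the fits without single libraries as grey bars. The grey bar of Onecut1 crosses 0, and those of Mnx1 and Isl1 span -1.25 to -0.21 and 0.17 to 1.21.

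Taking the 6 tested members as a set, 3 were higher and 3 lower in Setd5sh, with a median log2 fold change of 0.05. Over all tested genes 42.6% were positive. None passed in edgeR, DESeq2 or limma, and 0 of 6 had an unadjusted p under 0.05 in edgeR. With the replicate number as a block, Mnx1 and Gfra1 did, as did 2.69% of tested genes, 1.51% being lower. Of all 10 members, 1 separated the groups, against 5.21% of tested genes in either direction.

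The order of levels was much alike in both groups. In Setd5sh it ran Mnx1, Ret, Foxp1, Isl1, Gfra1, Onecut1, Lhx3, Onecut2, Lhx4 and Isl2. In control it ran Mnx1, Foxp1, Ret, Gfra1, Isl1, Onecut1, Lhx3, Onecut2, Lhx4 and Isl2. Ranges of neighbours overlapped for Mnx1 with Ret and for Isl1, Gfra1 and Onecut1 in Setd5sh, whereas in control Mnx1 stood clear of Foxp1 and Gfra1 clear of Isl1. Set among all tested genes by mean level, Mnx1 was above 64.4% of them, Ret above 38.5%, and Isl1 above 9.90%.

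Members differed in how far libraries of the same group spread. The within-group SD of the log2 level was 0.74 for Mnx1, 0.82 for Isl1 and 0.89 for Onecut1, against a median of 0.27 over all tested genes. A smaller SD was found in 93.5%, 95.4% and 96.7% of tested genes for these 3 members. It was 0.27 for Ret, 0.31 for Gfra1 and 0.14 for Foxp1. Mnx1 rested on 223 to 1392 counts per library and Isl1 on 74 to 276, while Onecut1 had 33 counts in control replicate 3.

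**Figure D4:**
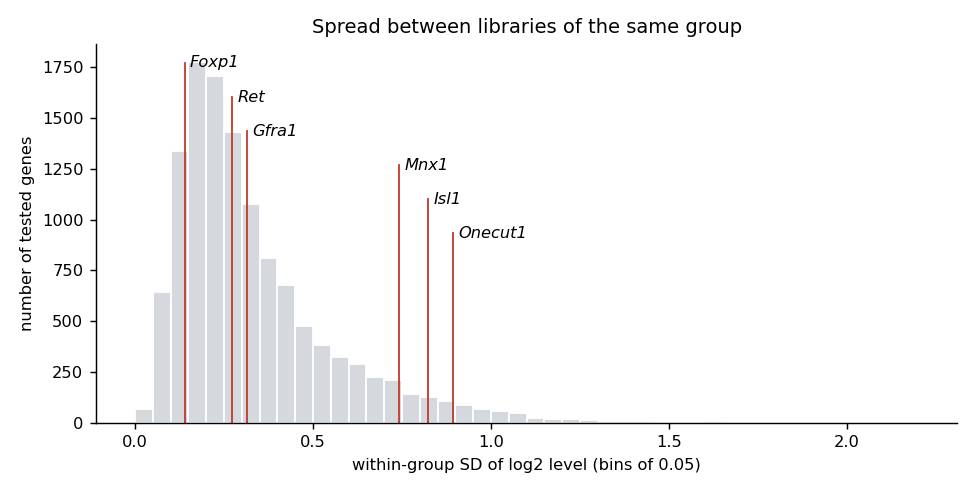
Number of tested genes by within-group SD of the log2 level (grey bars, bins of 0.05), with red lines at the 6 tested members. Foxp1, Ret and Gfra1 lie in the bulk of genes at 0.14 to 0.31, and Mnx1, Isl1 and Onecut1 in the upper tail at 0.74 to 0.89.

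Genes whose pattern over the 6 libraries was most like that of a member were named by Pearson's r on log2(FPKM + 1) among the tested genes. For Mnx1 these were Vsig10, Zfp839, Neurl1a, Cxcl12 and Zcchc2, all with r of 0.99. For Isl1 they were Nhlh2 at 1.00, Ubtd2 and Slc38a2 at 0.99, and Epha4 and Tars at 0.98. In all, 183 tested genes (1.5%) had r over 0.95 with Mnx1 and 57 (0.467%) with Isl1. Nhlh2, a basic helix-loop-helix factor of newly born neurons, stood at 2.21, 1.06 and 2.75 FPKM in Setd5sh against 2.18, 0.89 and 1.04 FPKM in control replicates 1, 2 and 3, close to Isl1 in every library. Cxcl12, the chemokine ligand of Cxcr4, stood at 0.83, 2.74 and 0.62 FPKM in Setd5sh against 1.63, 4.30 and 1.80 FPKM in control, as in Mnx1 highest in the libraries numbered 2.

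The summed level of 18 pan-neuronal genes, like Isl1, was lowest of each group in the libraries numbered 2. It was 127, 86.3 and 125 FPKM in Setd5sh replicates 1, 2 and 3 against 83.0, 62.9 and 75.0 FPKM in control replicates 1, 2 and 3. All 3 Setd5sh sums lay above the 3 control sums, unlike Isl1, whose control replicate 1 was high. Tubb3 was the largest part of each sum and of the gap between the groups, so this separation does not speak for the other listed genes. Of 11 tested genes 10 were positive, 0 passed, and 5 separated the groups upward, against 3.07% of tested genes. Tubb3, neuronal beta-tubulin, stood at 53.5, 30.5 and 55.0 FPKM in Setd5sh against 19.0, 17.3 and 26.1 FPKM in control. Insm1, a zinc finger factor of newborn neurons, stood at 17.3, 18.4 and 17.0 FPKM in Setd5sh against 10.96, 12.5 and 14.1 FPKM in control replicates 1, 2 and 3, and so did not follow the sum. Gap43, an axonal growth protein, stood at 11.7 ± 3.32 FPKM in Setd5sh against 11.1 ± 2.07 FPKM in control libraries (SD, n = 3 each). The part of neuron number in the Isl1 values was not tested.

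Progenitor and early commitment factors, fixed as a list, gave 10 of 13 tested genes positive, with a median log2 fold change of 0.34, 0 passing and 3 separating the groups upward, against 3.07% of tested genes. Nkx2-9, a ventral homeodomain factor, stood at 164 ± 14.5 FPKM in Setd5sh against 134 ± 16.2 FPKM in control libraries (SD, n = 3 each), Olig2 at 93.7 ± 20.4 FPKM in Setd5sh against 73.6 ± 7.04 FPKM in control, and Sox2, the progenitor factor, at 74.0 ± 6.47 FPKM in Setd5sh against 74.6 ± 8.43 FPKM in control.

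The LIM homeodomain members act through shared cofactors. Of 10 LIM cofactors and LIM-only genes, 3 were under 1 FPKM in all libraries, 7 were tested, 3 were positive and 0 passed, with a median log2 fold change of -0.05. Ldb1, which bridges Isl1 and Lhx3, stood at 42.6 ± 0.961 FPKM in Setd5sh against 39.0 ± 2.87 FPKM in control libraries (SD, n = 3 each). Ssbp3, which stabilises Ldb1, stood at 45.5 ± 2.46 FPKM in Setd5sh against 41.0 ± 6.69 FPKM in control, and Lmo4, a competitor for Ldb1, at 12.2 ± 0.887 FPKM in Setd5sh against 12.9 ± 2.64 FPKM in control.

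Close paralogs of the members were mostly low, with 9 of 12 under 1 FPKM in all libraries. The 3 tested were Foxp4 at 64.1 ± 5.84 FPKM in Setd5sh against 58.3 ± 15.4 FPKM in control libraries (SD, n = 3 each), Lhx1 at 4.46 ± 0.856 FPKM in Setd5sh against 4.13 ± 1.68 FPKM in control, and Lmx1b at 1.17, 2.19 and 1.15 FPKM in Setd5sh against 1.52, 2.77 and 2.10 FPKM in control replicates 1, 2 and 3. None of the 3 passed.

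Genes of mature motor neuron function were low. Of 16 cholinergic and effector genes, 10 were under 1 FPKM in all libraries, 5 were tested, 2 were positive and 0 passed. Chat, the acetylcholine-synthesising enzyme, was at 0.04 to 0.10 FPKM in Setd5sh against 0.03 to 0.09 FPKM in control. The chemokine receptor gene Cxcr4 stood at 20.7 ± 4.95 FPKM in Setd5sh against 20.3 ± 3.97 FPKM in control libraries (SD, n = 3 each). Prph, the peripheral neuron filament peripherin, stood at 1.47, 7.87 and 1.15 FPKM in Setd5sh against 1.75, 10.0 and 3.60 FPKM in control replicates 1, 2 and 3, highest in the libraries numbered 2 as Mnx1 was. Calca, the gene of calcitonin gene-related peptide, was at 1.96 ± 0.380 FPKM in Setd5sh against 1.71 ± 0.883 FPKM in control.

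Several members are used by other cell types, whose markers were measured beside them. Of 5 hindbrain visceral motor neuron genes, which share Isl1 with spinal motor neurons, the sum was 42.5 to 46.0 FPKM in Setd5sh against 36.2 to 43.7 FPKM in control, with 2 tested, both positive, and 0 passing. Phox2a stood at 7.07 ± 1.68 FPKM in Setd5sh against 5.71 ± 1.95 FPKM in control, and Tbx2 at 0.747 ± 0.196 FPKM in Setd5sh against 0.497 ± 0.280 FPKM in control libraries (SD, n = 3 each). The part of these neurons in the Isl1 and Ret levels was not tested.

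V2 interneurons share Lhx3 and Lhx4 with motor neurons. The sum of 9 genes of V2 interneurons and their progenitors was 32.1 to 38.7 FPKM in Setd5sh against 25.3 to 32.4 FPKM in control. Of these, 2 were tested, both positive, and 0 passed. Sox21 stood at 7.04 ± 0.853 FPKM in Setd5sh against 5.35 ± 0.531 FPKM in control libraries (SD, n = 3 each), while Gata3 stood at 1.18 ± 0.461 FPKM in Setd5sh against 0.657 ± 0.0473 FPKM in control. Sox14 was listed at 0 in all libraries. Of 9 genes of other ventral interneurons and their progenitors, 7 were under 1 FPKM in all libraries. The sum was 7.80 to 14.4 FPKM in Setd5sh against 5.65 to 8.64 FPKM in control, mostly from the progenitor factors Dbx1 and Nkx2-2. The neuron genes Evx1, Evx2, En1, Foxd3, Sim1 and Uncx were at most 0.14 FPKM in any library. Dbx1 stood at 7.23 ± 2.58 FPKM in Setd5sh against 4.06 ± 1.26 FPKM in control, Nkx2-2 at 2.82 ± 0.907 FPKM in Setd5sh against 2.14 ± 0.494 FPKM in control, and Dbx2 at 0.503 ± 0.150 FPKM in Setd5sh against 0.337 ± 0.132 FPKM in control, with 0 passing.

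Neural crest, sensory and enteric cells use Isl1, Ret and Gfra1. The sum of 11 of their genes was 18.1 to 20.3 FPKM in Setd5sh against 21.2 to 35.6 FPKM in control, so that it was lower in every Setd5sh library, as Gfra1 was. Most of that sum was Ednrb, an endothelin receptor gene also used by neural progenitors, at 12.4, 11.9 and 13.3 FPKM in Setd5sh against 29.68, 15.35 and 14.98 FPKM in control replicates 1, 2 and 3. Of the 3 tested, 1 was positive and 0 passed. Six4 stood at 2.71 ± 0.456 FPKM in Setd5sh against 3.16 ± 0.226 FPKM in control libraries (SD, n = 3 each). The defining crest factor Sox10 was near 0, at 0.03 to 0.09 FPKM in Setd5sh against 0.02 to 0.03 FPKM in control.

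Floor plate and notochord, endoderm and pancreas, and the second heart field use Mnx1 or Isl1 as well. The sum of 8 floor plate and notochord genes was 76.4 to 82.4 FPKM in Setd5sh against 62.1 to 73.2 FPKM in control, of 4 tested 3 were positive and 0 passed, and Noto was listed at 0. Ntn1 stood at 38.7 ± 4.46 FPKM in Setd5sh against 31.6 ± 2.77 FPKM in control, Foxa2 at 32.8 ± 2.14 FPKM in Setd5sh against 28.6 ± 6.77 FPKM in control, and Spon1 at 4.37 ± 0.655 FPKM in Setd5sh against 5.43 ± 0.749 FPKM in control libraries (SD, n = 3 each). The sum of 10 endoderm and pancreas genes was 5.80 to 8.83 FPKM in Setd5sh against 7.74 to 8.51 FPKM in control. Gata6 stood at 1.40 ± 0.226 FPKM in Setd5sh against 1.43 ± 0.200 FPKM in control and Sox17 at 1.16 ± 0.271 FPKM in Setd5sh against 0.853 ± 0.122 FPKM in control, with 1 of 3 tested positive, 0 passing, and the pancreatic factor Pdx1 at 0 except for 0.05 FPKM in control replicate 2. The sum of 8 heart field genes was 10.97 to 17.5 FPKM in Setd5sh against 12.7 to 23.5 FPKM in control, mainly Myl7 at 11.3 ± 3.41 FPKM in Setd5sh against 13.7 ± 4.84 FPKM in control and Hand2 at 2.94 ± 0.234 FPKM in Setd5sh against 2.82 ± 1.16 FPKM in control, with 1 of 2 tested positive and 0 passing, while Nkx2-5 was at most 0.47 FPKM. The part of these cells in the members' values was not tested.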

How the data were processed

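RNA-seq of 3 Setd5sh and 3 control libraries was analysed from the single table the authors deposited, which holds a raw count and an FPKM value per gene and library. Per the submitters' processing notes, HISAT2, SAMtools, HTSeq, DESeq2 and mm10 were used; they give no versions, annotation release or strand setting. FPKM recomputed from each deposited count, length and column total differed from the authors' value by at most 0.005. Groups and replicate numbers came from sample titles, and symbols from GENCODE M21, which matched 55140 identifiers (99.5%). Coordinates are from that annotation, and promoter sequences from RefSeq.

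The main test was edgeR 4.0.16 (R 4.3.3) on deposited counts, with TMM scaling, a quasi-likelihood fit, a mean of at least 1 FPKM over 6 libraries (12199 genes), Benjamini-Hochberg adjustment over all of them and a threshold of 0.05, two-sided. Spread and correlations used log2 CPM after TMM and log2(FPKM + 1), computed here. DESeq2 1.42.0, limma 3.58.1, other scalings and filters, a replicate block and fits without single libraries were alternatives, and fits without both libraries of 1 number were added after the data were seen. The fits were tested on simulated counts. Deviations of same-numbered libraries from their group means correlated at 0.185, 0.69 and 0.127 for numbers 1, 2 and 3. Only number 2 stood out, and the labels do not say whether the numbers pair libraries. Comparisons between same-numbered libraries are therefore descriptions, and the main test did not pair libraries. Every pair of libraries differed by more than sampling noise (lowest chi-square over degrees of freedom 8.55). Control replicate 1 was furthest from the others, at 140 to 234 against each of them, while no other pair was above 73.0.

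Members and the 16 other gene lists were chosen with earlier results of these data known. All members are named, with, in each other list, the 3 genes highest by mean FPKM; single-gene results of 5 list genes are not reported here. Other list genes are named as defining markers, chosen after their values were seen. The 5 genes most like Mnx1 and Isl1 are named by correlation. Figures were drawn with matplotlib 3.10.9.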

Additional observations from a re-analysis of the deposited data

How the results depend on the processing

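No member passed in edgeR under any of the scalings, filters, blocks or left-out libraries that were run, nor in DESeq2 or limma. Over all genes, 73 passed with no filter on level, among 29462 genes tested, and 0 under every other setting. With the replicate number as a block, 0 genes and 0 members passed. Under the block Mnx1 stood at a log2 fold change of -0.72 (unadjusted p = 0.0145, edgeR) and Gfra1 at -0.57 (unadjusted p = 0.0345, edgeR), where 1.51% of tested genes were lower at an unadjusted p under 0.05; the block changed no call. The count of members whose groups do not overlap, 1 as reported, ranged from 1 to 4 without single libraries, where 7.28% to 25.7% of tested genes did not overlap. It was 4 without the libraries numbered 1 (Isl1, Lhx4, Onecut1 and Gfra1; 19.2% of tested genes), 3 without those numbered 2 (Mnx1, Ret and Gfra1; 20.1%) and 3 without those numbered 3 (Ret, Gfra1 and Foxp1; 40%). Leaving out a library can only add to this count. Of 119 log2 fold changes of members and Setd5 under an alternative, 4 turned in sign. Onecut1, which ranged from -0.18 to 1.16 over fits without single libraries, was at -0.013 when control replicate 2 was left out, at -0.18 when control replicate 3 was and at -0.19 without the libraries numbered 3, and Foxp1 was at 0.042 without those numbered 1; the cause was not tested. Depth limits Isl2, with at most 8 counts in a library, most.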

Other observations

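Genes that hold cells out of the cell cycle were expressed throughout and did not separate the groups. Of 10, 9 were tested, 5 were positive and 0 passed in edgeR, with a median log2 fold change of 0.01. Cdkn1c, the p57 cell cycle inhibitor, stood at 32.9 ± 5.16 FPKM in Setd5sh against 32.5 ± 8.46 FPKM in control libraries (SD, n = 3 each), Gadd45g at 31.3 ± 6.37 FPKM in Setd5sh against 29.4 ± 2.51 FPKM in control, and Cdkn1a, the p21 inhibitor, at 24.4 ± 4.58 FPKM in Setd5sh against 18.4 ± 7.37 FPKM in control.

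Fibroblast genes, measured because the stem cells were kept on feeder fibroblasts, were low. The sum of 8 was 7.21 to 9.29 FPKM in Setd5sh against 5.46 to 8.66 FPKM in control. Col1a2 stood at 5.93 ± 1.67 FPKM in Setd5sh against 4.63 ± 1.63 FPKM in control, Col1a1 at 1.37 ± 0.961 FPKM in Setd5sh against 1.79 ± 0.849 FPKM in control, and Col3a1 at 0.570 ± 0.0794 FPKM in Setd5sh against 0.500 ± 0.219 FPKM in control (SD, n = 3 each). Of 2 tested, 1 was positive and 0 passed in edgeR.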
